A study of Mus musculus with 65 samples.

Results

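The PTG libraries at the Lats1 and Lats2 cut sites form a time course of genome editing in the mouse liver. They were chosen by their labels: all libraries of the arm labelled PTG, at the sites Lats1-sg1, Lats1-sg2, Lats2-sg1 and Lats2-sg2, at 2, 3 and 6 weeks post injection (wpi). These are 12 of the 65 libraries of the series, 1 for each site and time. Each is an amplicon library of hepatocyte genomic DNA, so every read reports what was left at the cut site of 1 amplified copy of the gene. An indel read is a read whose net length change at the cut is not 0, and its share of all reads in a library is the indel share. An allele is a distinct combination of template bases lost to the left and right of the cut, net length change and microhomology. Which bases were inserted is not part of it, so an allele with inserted bases can pool several sequences. Left and right follow the orientation of the amplicon template, whose genomic strand no source used here gives.

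All animals carried Cas9 and EGFP at the Rosa locus behind a Cre-dependent stop cassette (labelled Rosa-LSL-Cas9-EGFP) and were injected retro-orbitally with an adeno-associated virus (AAV). No source used here gives where Cre came from or how old the animals were. The PTG virus targeted Lats1 and Lats2 with 2 guides each. The labels do not spell out the abbreviation, which elsewhere in genome editing commonly stands for a polycistronic tRNA and guide RNA array, in which several guides are cut out of a single transcript. The control libraries, labelled EV, come from animals whose virus carried an empty guide cassette and were taken at 2 wpi only. An arm labelled coinjection covers the same sites at 2 and 3 wpi. Its alleles are used here only to ask whether a PTG allele was also seen there. Whether the 4 sites of a time come from the same animal is not stated, and with 1 library per site and time, time and animal cannot be told apart. Genomic reads hold no marker by which the labelled cell type could be checked.

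Lats1 (chromosome 10, 7681200 to 7716461, mm10) and Lats2 (chromosome 14, 57689662 to 57746212, mm10) encode the core kinases of the Hippo pathway. They phosphorylate the coactivators YAP and TAZ and thereby keep them out of the nucleus, and in the liver this pathway restrains growth and holds hepatocytes in their mature state. A Cas9 break is mostly rejoined by end joining. Clean or slightly frayed ends give very short indels, a staggered cut that is filled in gives a templated 1 bp insertion, and joining at short repeats on either side of the break (microhomology) gives longer deletions. The positions of the 4 cuts within the exons of the genes are not analysed here, so no protein consequence is assigned to an allele.

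The 12 libraries held 2879 to 25254 reads, with a median of 11894.5 and 163134 in all, of which 35735 were indel reads (446 to 7072 per library). The smallest was Lats1-sg2 at 3 wpi. A count of 0 in a whole library allows a share of up to 0.0119% to 0.104% of its reads. No read name was shared among the 24 PTG, EV and coinjection libraries at these sites, and the shares on the sequencer's tiles differed within a PTG library by at most 1.59 points (0 of 12 libraries under 0.05 by an unadjusted Fisher's exact test). In the EV libraries the indel share was 0.0858% (Lats1-sg1), 0.0658% (Lats1-sg2), 0.0821% (Lats2-sg1) and 0.102% (Lats2-sg2). Shares carry exact (Clopper-Pearson) 95% intervals and differences carry Newcombe intervals. Both cover nothing beyond counting error, since PCR copies of a molecule cannot be told from separate molecules without molecular identifiers. Every Fisher's exact test here compares libraries and not animals.

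The indel share of Lats1-sg1 started far above those of the other 3 sites and ended closer to them. The share rose at every step at those 3 sites and fell after 3 wpi at Lats1-sg1, the most edited site. At Lats1-sg1 the indel share was 55.2% (54.2 to 56.2) at 2 wpi, 63.7% (62.4 to 64.9) at 3 wpi and 43.7% (42.6 to 44.9) at 6 wpi. Lats1-sg2 had 9.65% (8.96 to 10.4), 15.5% (14.2 to 16.9) and 26.2% (25.2 to 27.3) at the same times. For Lats2-sg1 the values were 5.79% (5.47 to 6.11), 11.8% (11.4 to 12.2) and 24.4% (23.8 to 24.9). These 2 sites rose in every interval, and the intervals of neighbouring times did not overlap. Lats2-sg2 had 5.90% (5.58 to 6.23), 16.9% (16.3 to 17.5) and 35.5% (34.8 to 36.1), the widest climb of the 4, to 6.01 times its value at 2 wpi. The same ratio of 6 to 2 wpi was 4.21 at Lats2-sg1, 2.72 at Lats1-sg2 and 0.793 at Lats1-sg1.

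**Figure D1:**
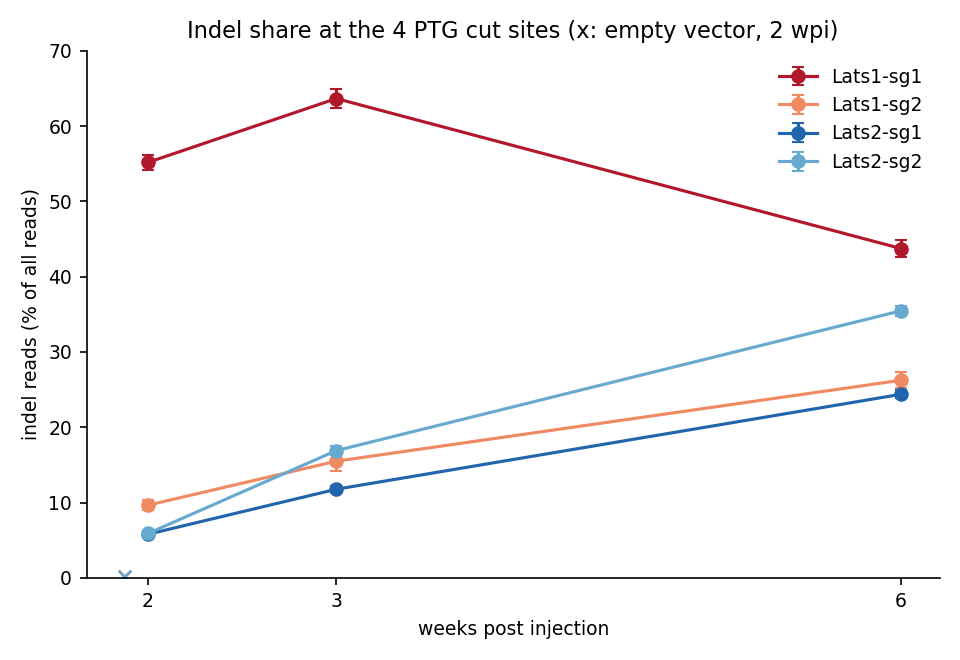
Indel share (percent of all reads, y axis) at each of the 4 PTG cut sites against weeks post injection (x axis); points are single libraries, bars are exact 95% intervals for counting error, and crosses at the left are the EV libraries of the same sites. Lats1-sg1 peaks at 63.7% and ends at 43.7%, while the other sites climb to between 24.4% and 35.5%.

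Between 3 and 6 wpi the sites moved in opposite directions. Lats1-sg1 fell by 19.9 points (interval of the difference -21.6 to -18.2), whereas Lats1-sg2 gained 10.7 points (9.03 to 12.4), Lats2-sg1 12.6 points (11.9 to 13.3) and Lats2-sg2 18.6 points (17.7 to 19.5). Of the 12 comparisons of times within a site, each passed Fisher's exact test (two-sided, Benjamini-Hochberg adjusted over 12), the largest adjusted p being 6.67e-16. Comparisons of 3 with 2 wpi and of 6 with 2 wpi share the library at 2 wpi. With the site as the unit, the mean change was 7.82 ± 2.44 points (SD, n = 4 sites) from 2 to 3 wpi, higher in 4 of 4 sites, and the exact sign-flip test (two-sided) gave the smallest p that 4 sites allow, which is above 0.05. From 3 to 6 wpi the mean was 5.50 ± 17.3 points, higher in 3 of 4 sites (p = 0.625 in the same exact test), and from 2 to 6 wpi it was 13.3 ± 17.5 points (p = 0.25).

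With all indels counted, the order of the guides changed only below its top. At 2 wpi it ran Lats1-sg1, Lats1-sg2, Lats2-sg2 and Lats2-sg1, and the lowest neighbours differed by 0.110 points (-0.342 to 0.563; two-sided Fisher's exact test adjusted over 18 pairs of sites, p = 0.645), which was not beyond counting error. Lats1-sg2 was then 3.75 points above Lats2-sg2 (3.00 to 4.54; adjusted Fisher's exact p = 8.13e-25). At 3 wpi Lats2-sg2 stood above Lats1-sg2 by 1.40 points (-0.0954 to 2.83; adjusted Fisher's exact p = 0.0696), a gap that did not pass. The same gap passed at 2.26 points without alleles of under 2 reads (adjusted Fisher's exact p = 0.00337), at 3.71 points without those of under 10 reads (p = 7.33e-07) and at 2.83 points within 5 bp of the cut (p = 0.000182), and in reverse at -9.49 points with 1 bp indels counted as unedited and at -2.93 points without the most frequent allele of each site. At 6 wpi the order was Lats1-sg1, Lats2-sg2, Lats1-sg2 and Lats2-sg1, with Lats2-sg2 9.22 points above Lats1-sg2 (7.97 to 10.5; adjusted Fisher's exact p = 1.22e-44). All 6 pairs passed at 6 wpi, the closest being Lats1-sg2 and Lats2-sg1 with 1.87 points (0.701 to 3.06; adjusted Fisher's exact p = 0.00193). That closest gap depended on rare alleles: without alleles of under 10 reads it was -1.02 points (adjusted Fisher's exact p = 0.0919). Lats1-sg1 held the highest share at all 3 times. Its lead over Lats1-sg2 at 6 wpi was not kept without the most frequent allele of each site, where the difference was -1.39 points (adjusted Fisher's exact p = 0.0513). With 1 bp indels counted as unedited Lats1-sg1 was not the highest at 3 or at 6 wpi. At 3 wpi it then differed from Lats1-sg2 by -1.72 points (adjusted Fisher's exact p = 0.0185). At 6 wpi it differed from Lats1-sg2 by -12.8 points (adjusted Fisher's exact p = 4.31e-106) and from Lats2-sg1 by -2.31 points (p = 2.78e-09). In the same setting at 6 wpi Lats2-sg2 differed from Lats1-sg2 by -16.1 points.

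The ratio of the highest to the lowest share fell at each step, while the range in points fell only after 3 wpi. The highest share was 9.53 times the lowest at 2 wpi, 5.41 times at 3 wpi and 1.79 times at 6 wpi, a range of 49.4, 51.9 and 19.4 points. The 3 sites other than Lats1-sg1 averaged 7.11 ± 2.20% (SD, n = 3 sites) at 2 wpi, 14.7 ± 2.65% at 3 wpi and 28.7 ± 5.94% at 6 wpi. In points the SD of these 3 sites thus grew. Lats2-sg2 minus Lats2-sg1 went from 0.110 to 5.13 and 11.1 points, whereas Lats1-sg2 minus Lats2-sg1 went from 3.86 to 3.73 and 1.87. Relative to Lats1-sg1 of the same time, Lats2-sg2 moved from 0.107 to 0.265 and 0.811, Lats1-sg2 from 0.175 to 0.243 and 0.600, and Lats2-sg1 from 0.105 to 0.185 and 0.557.

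Single alleles can be followed because each site had a preferred repair product. Over the 4 sites and 3 times 667 alleles were seen, 77 of them at all 3 times of their site and 520 at 1 time only. The allele with the highest mean share at a site led all 3 of its libraries, so the leader was the same in 12 of 12. At Lats1-sg1, Lats2-sg1 and Lats2-sg2 that leader was a 1 bp insertion, whatever base was inserted. At Lats1-sg2 it was a clean 2 bp deletion to the left of the cut. Of the 667 alleles 23 also occurred in the EV library of their site. This number was capped, since the EV libraries held few indel reads. They had 9 in 2 alleles at Lats1-sg1, 4 in 3 at Lats1-sg2, 21 in 12 at Lats2-sg1 and 19 in 9 at Lats2-sg2. The leader had 8 EV reads at Lats1-sg1, 7 at each Lats2 site and 0 at Lats1-sg2. The number therefore does not show that EV and PTG alleles differ. Shares of alleles below are shares of indel reads, so that the indel share of a library does not enter them.

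The leader at Lats1-sg1 kept nearly the same place throughout. Its 1 bp insertion held 75.7% of indel reads at 2 wpi, 79.2% at 3 wpi and 76.2% at 6 wpi. The change from 2 to 6 wpi was 0.55 points (Fisher's exact test, adjusted p = 0.631), although the rise to 3 wpi (3.58 points, adjusted p = 0.000207) and the fall after it (-3.03 points, adjusted p = 0.00581) each passed. As a share of all reads the same insertion went from 41.7% to 50.4% and then to 33.3%. The followers were small: the loss of 3 left bases with 1 base inserted held 4.19%, 3.76% and 4.96%, and the clean 2 bp deletion on the left held 2.79%, 1.92% and 2.56%. A 2 bp insertion had 1.87%, 1.63% and 2.31%, and the loss of 2 left bases with 1 inserted had 1.88%, 1.83% and 1.88%. The largest called changes between 2 and 6 wpi were a fall of a 7 bp loss with 1 inserted base, from 38 reads to 9 (0.702% to 0.277%), and a rise of a 5 bp loss with 1 inserted base, from 14 reads to 21 (0.259% to 0.647%). The place of the leader thus differed little between times while the indel share of the site moved by up to 19.9 points.

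The leader at Lats1-sg2 lost ground among the indel reads while it gained among all reads. The clean 2 bp deletion made up 60.0% of indel reads at 2 wpi (56.2 to 63.7), 48.4% at 3 wpi (43.7 to 53.2) and 42.4% at 6 wpi (40.1 to 44.8). The change from 2 to 6 wpi was -17.6 points (-21.9 to -13.1; adjusted Fisher's exact p = 9.15e-14), the largest fall of any allele named here. Among all reads it rose from 5.79% to 7.50% and 11.1%. The second allele, a 1 bp insertion, had 11.6%, 15.2% and 14.9% of indel reads (6 against 2 wpi, adjusted Fisher's exact p = 0.0547). A 3 bp deletion with 2 bp of microhomology rose from 5.56% through 6.95% to 9.32% (6 against 2 wpi, adjusted Fisher's exact p = 0.00584), a call that was lost among the reads outside the leading deletion (2.28 points, p = 0.447). The 1 bp deletion on the left had 2.26%, 6.73% and 3.75%, highest at 3 wpi, and a 4 bp deletion on the left had 1.95%, 3.14% and 2.33%. A 17 bp deletion with 3 bp of microhomology had 1 read at 2 wpi, none of 446 indel reads at 3 wpi and 38 reads (2.16%) at 6 wpi (6 against 3 wpi, adjusted Fisher's exact p = 0.000813).

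**Figure D2:**
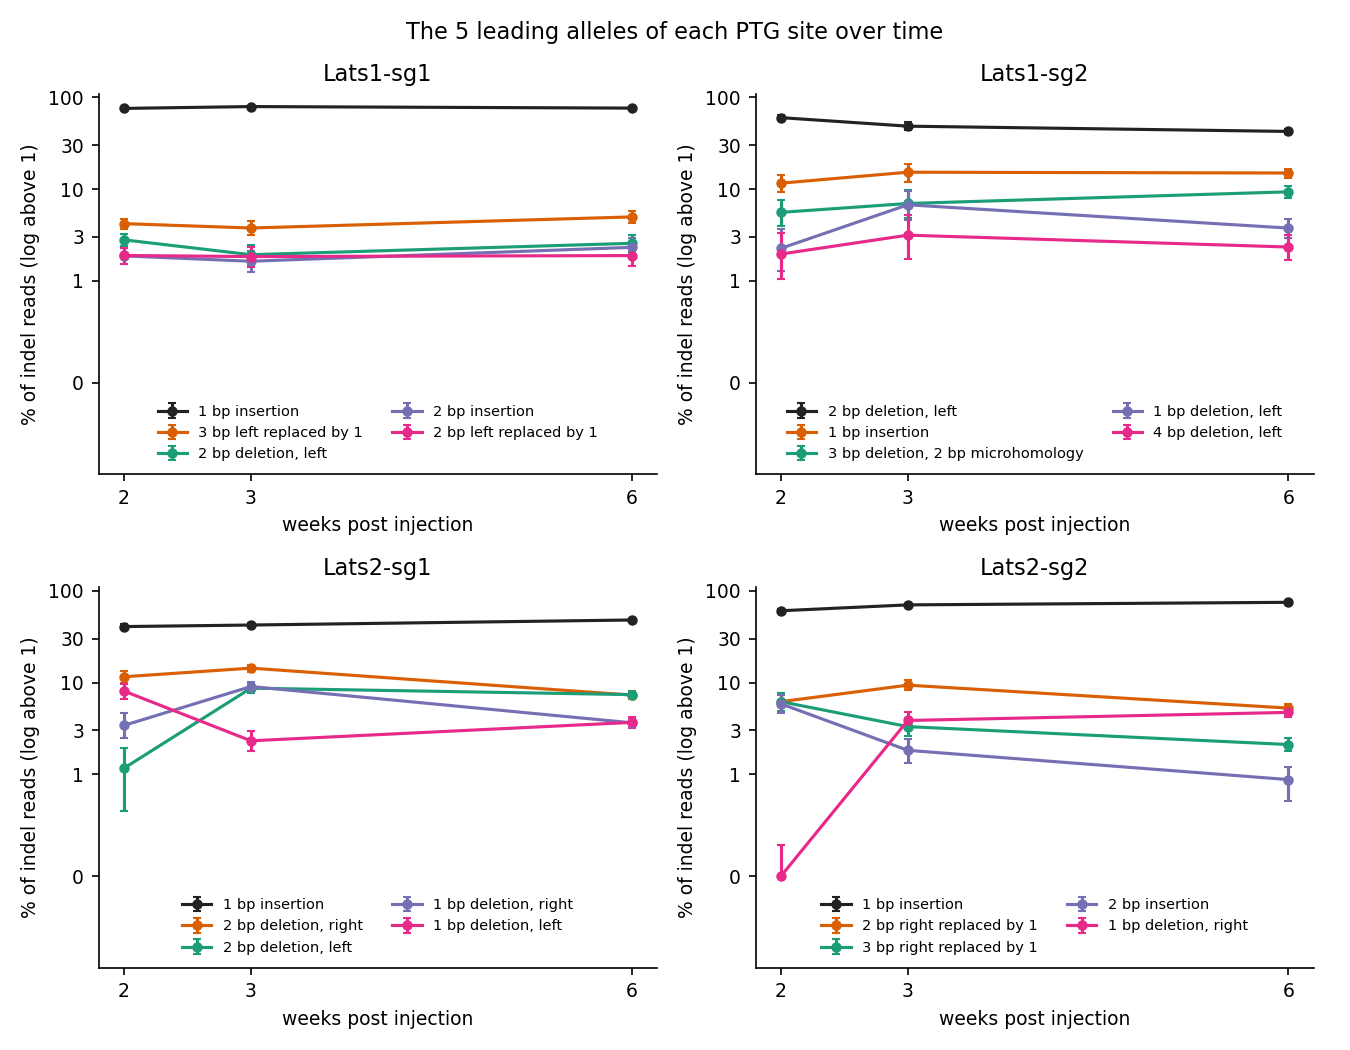
Share of indel reads (percent, y axis, linear below 1% and logarithmic above) of the 5 alleles with the highest mean share at each PTG site, against weeks post injection (x axis); each point is 1 library and bars are exact 95% intervals. The leader is the same at all times of a site, while at both Lats2 sites the alleles behind it change places.

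At Lats2-sg1 the leader gained and the alleles behind it were exchanged. The 1 bp insertion held 40.7% of indel reads at 2 wpi, 42.3% at 3 wpi and 48.0% at 6 wpi, and 2.36%, 4.98% and 11.7% of all reads. Its rise from 2 to 6 wpi was 7.31 points (Fisher's exact test, adjusted p = 1.36e-05). The loss of 2 right bases with 1 base inserted, the third most frequent allele at 2 wpi, went from 134 reads (11.1%) to 47 (1.70%) and 67 (1.09%), a change of -10.05 points from 2 to 6 wpi (adjusted Fisher's exact p = 2.51e-57). The clean 2 bp deletion on the left went the other way, from 14 reads (1.16%) to 240 (8.68%) and 454 (7.38%), a rise of 6.21 points (adjusted Fisher's exact p = 3.61e-20). Its mirror image, the 2 bp deletion on the right, had 11.6%, 14.4% and 7.29%. The 1 bp deletion on the right peaked at 3 wpi with 9.04%, against 3.41% and 3.64% before and after, and the 1 bp deletion on the left was lowest there with 2.31%, against 8.06% and 3.67%. Several alleles were thus high at 1 time and low at the others, in no common direction.

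At Lats2-sg2 the leader took a growing part of the indel reads. The 1 bp insertion held 60.6% (57.8 to 63.4) at 2 wpi, 70.2% (68.3 to 72.1) at 3 wpi and 74.9% (73.9 to 75.9) at 6 wpi, and 3.57%, 11.9% and 26.6% of all reads. Its rise from 2 to 6 wpi was 14.3 points (Fisher's exact test, adjusted p = 1.29e-22), the largest rise of any allele named here. A 2 bp insertion fell from 5.85% to 1.82% and 0.947% (6 against 2 wpi, adjusted Fisher's exact p = 1.42e-23), although its share of all reads stayed between 0.308% and 0.345%. The loss of 3 right bases with 1 inserted fell from 6.18% to 3.30% and 2.11% (6 against 2 wpi, adjusted Fisher's exact p = 4e-12). The loss of 2 right bases with 1 inserted had 6.18%, 9.36% and 5.26%, highest at 3 wpi. The clean 1 bp deletion on the right was absent at 2 wpi, where 0 of 1213 indel reads allow a share of up to 0.247%, and held 91 reads (3.85%) at 3 wpi and 334 reads (4.72%) at 6 wpi. Its share at 6 wpi was 19.1 times that limit of 0.247%, with no allowance for counting error at 6 wpi (6 against 2 wpi, adjusted Fisher's exact p = 7.21e-23).

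Over all alleles with at least 20 reads in the libraries compared, 51 of 81 (63%) changed their share of indel reads between 2 and 6 wpi (two-sided Fisher's exact test adjusted over the 81 at all 4 sites), 30 upward and 21 downward. Between 2 and 3 wpi 40 of 52 (76.9%) passed, 20 in each direction, and between 3 and 6 wpi 58 of 79 (73.4%), 37 upward and 21 downward. These directions depend on the scale, on the read minimum and on how alleles entered the test. The 20 reads were counted over both libraries together. An allele with 0 reads at 2 wpi was thus tested only if it was frequent at 6 wpi, and could only be called upward. At the 3 rising sites the 6 wpi library had more indel reads, which favours such entries. How much of the upward excess this made up was not tested. As a share of all reads 67 of the 81 alleles passed between 2 and 6 wpi, 80.6% of them upward, against 58.8% upward as a share of indel reads, and between 3 and 6 wpi 84.3% of those that passed went upward, against 63.8%. With a minimum of 50 reads 44.0% of the alleles that passed between 2 and 6 wpi and 41.7% of those between 3 and 6 wpi went upward. The counts differed by site. From 2 to 6 wpi 30 of 38 tested alleles passed at Lats2-sg1, 12 of 19 at Lats2-sg2, 5 of 11 at Lats1-sg2 and 4 of 13 at Lats1-sg1. Indel reads at 2 wpi numbered 5415 at Lats1-sg1, 1213 at Lats2-sg2, 1203 at Lats2-sg1 and 665 at Lats1-sg2. At 6 wpi they numbered 3245, 7072, 6155 and 1760 in the same order. Lats1-sg1, with the smallest proportion of changed alleles, thus had the most indel reads at 2 wpi but not at 6 wpi. The median size of the change among tested alleles was 0.357 points at Lats1-sg1, 0.605 at Lats2-sg1, 0.817 at Lats2-sg2 and 1.42 at Lats1-sg2. A difference between sites in these counts was not tested. Each of the 24 alleles named by rule was also present in at least 1 coinjection library of its site. Most of them were among the most frequent of their site, and those libraries held 1839 to 9310 indel reads. Their presence there was not compared with that of the other alleles.

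Whole allele distributions were compared as well. The total variation distance, which is 0 for identical distributions and 1 for distributions with no allele in common, was 0.0757 between 2 and 6 wpi at Lats1-sg1. It was 0.266 at Lats2-sg2, 0.303 at Lats1-sg2 and 0.380 at Lats2-sg1. These distances were not taken at equal depth, and libraries with few indel reads give larger distances by sampling alone. How much this added to the differences between sites and steps was not tested. At Lats1-sg1 the distance was 0.0903 between 2 and 3 wpi and 0.0914 between 3 and 6 wpi. For the other sites the earlier step measured 0.237 at Lats2-sg2, 0.241 at Lats1-sg2 and 0.359 at Lats2-sg1, and the later step 0.129, 0.233 and 0.275. How low Lats1-sg1 lay depended on the alleles counted. Without 1 bp indels its distance between 2 and 6 wpi was 0.353, above the 0.312 of Lats1-sg2, and below 0.585 at Lats2-sg2 and 0.681 at Lats2-sg1. Without the leading allele of each site Lats1-sg1 stayed the lowest with 0.305, against 0.391 at Lats1-sg2, 0.554 at Lats2-sg2 and 0.605 at Lats2-sg1. Between sites, only indel lengths can be compared. By lengths Lats1-sg1 and Lats2-sg2 came closer, at 0.235, 0.139 and 0.136 over the 3 times, whereas Lats1-sg1 and Lats1-sg2 stayed at 0.697, 0.683 and 0.655.

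Allele diversity was compared at equal depth, since libraries with more indel reads show more alleles. In 446 indel reads, the number in the smallest library, Lats1-sg1 was expected to show 40.8 ± 4.32 distinct alleles at 2 wpi, 36.4 ± 3.94 at 3 wpi and 38.6 ± 4.14 at 6 wpi (± is the SD of drawing reads from the library, not of replicates). Lats1-sg2 went from 40.1 ± 1.87 to 54 (its whole library at 3 wpi) and 71.7 ± 5.05. Lats2-sg1 went from 17.7 ± 1.00 to 28.2 ± 1.91 and 57.3 ± 3.66. Lats2-sg2 had 18.4 ± 1.63, 18.7 ± 1.98 and 30.4 ± 3.03. At this depth the 6 wpi library therefore held more alleles at 3 sites, by 3.23 times at Lats2-sg1, 1.79 at Lats1-sg2 and 1.65 at Lats2-sg2, and 0.948 times as many at Lats1-sg1. The size of the ratio depended on the depth and on the alleles counted. In 100 indel reads it was 1.08 at Lats2-sg2 and 1.86 at Lats2-sg1, and without alleles of the EV library 2.52 and 5.46. In 2879 reads of all kinds, which leaves in the difference in indel share, the ratios of 6 to 2 wpi were 4.31, 2.98, 2.91 and 0.852 in the same order of sites.

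**Figure D3:**
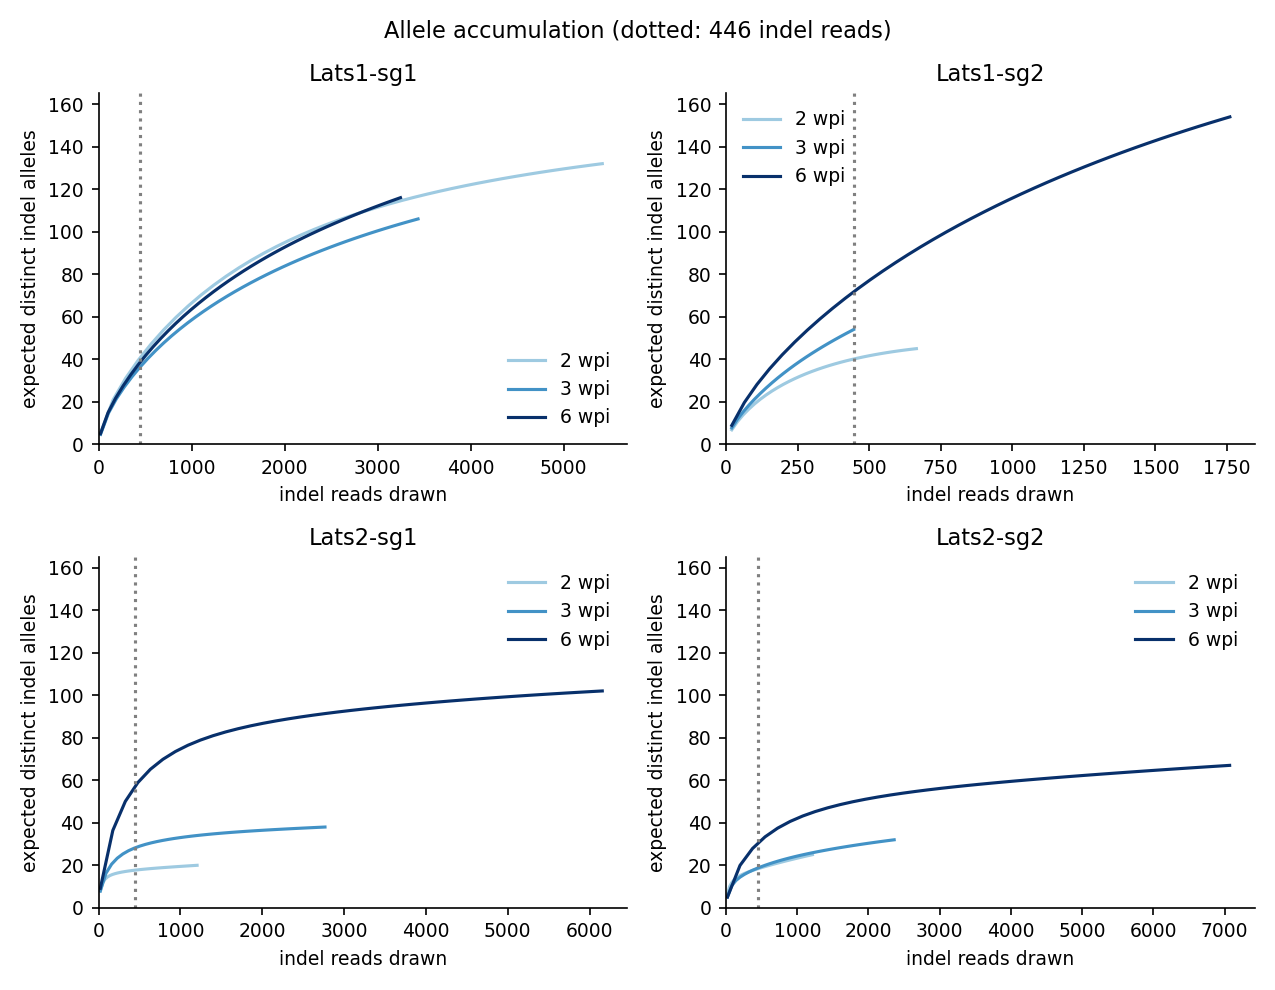
Expected number of distinct indel alleles (y axis) in a given number of indel reads drawn from each PTG library (x axis, its own scale per site), with 1 line per time and a dotted line at 446 indel reads. At 446 indel reads the 6 wpi curve lies above the others at Lats1-sg2, Lats2-sg1 and Lats2-sg2; at Lats2-sg2 it starts below them (5.06 against 6.47 alleles at 2 wpi in 20 reads) and crosses. The 3 curves lie close together at Lats1-sg1.

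Measures that weight frequent alleles moved differently. The inverse Simpson index, the number of equally frequent alleles that would give the same concentration, was 2.64, 3.71 and 4.66 at Lats1-sg2 over the 3 times, in step with the fall of its leader. At Lats2-sg2 it went down, from 2.60 to 1.97 and 1.76, and at Lats2-sg1 from 4.84 to 4.52 and 4.05. At Lats1-sg1 it was 1.73, 1.59 and 1.71. The number of alleles needed to cover 90% of indel reads was 14, 17 and 38 at Lats1-sg2, 10, 11 and 29 at Lats2-sg1, 7, 6 and 6 at Lats2-sg2 and 8, 7 and 7 at Lats1-sg1. At Lats2-sg2 the indel reads were thus more concentrated at 6 wpi than at 2 wpi, although more alleles were seen in 446 reads. The libraries also differed in how many reads an allele had. The median allele had 27 reads at Lats2-sg1 and 9 at Lats2-sg2 at 2 wpi, against 3 at both Lats1 sites, and whether reads of an allele stem from few amplified molecules was not tested.

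Most indel reads at 6 wpi lay in alleles already seen at 2 wpi, although most alleles did not. At Lats1-sg1 46 of 116 alleles of 6 wpi (39.7%) were present at 2 wpi and held 95.5% of the indel reads. Lats2-sg2 shared 14 of 67 alleles (20.9%) with 87.8% of reads. Lats1-sg2 shared 24 of 154 (15.6%) with 82.3% of reads, and Lats2-sg1 14 of 102 (13.7%) with 77.6% of reads. In the opposite direction, the alleles of 2 wpi that were found again at 6 wpi held 95.3% of indel reads at Lats1-sg1 and 92.2% at Lats1-sg2, against 90.02% at Lats2-sg2 and 85.5% at Lats2-sg1. The alleles lost from view included frequent ones, chosen here after their values were seen: at Lats2-sg1 the loss of 6 right bases with 1 inserted had 58 reads at 2 wpi (4.82%) and 0 of 2766 and 0 of 6155 indel reads later. A 3 bp insertion at Lats2-sg2 had 41 reads at 2 wpi (3.38%) and none at 3 or 6 wpi. Conversely, the clean 3 bp deletion on the right at Lats2-sg1, also chosen after its values were seen, had 0 of 1203 indel reads at 2 wpi, then 151 reads (5.46%) and 166 reads (2.70%).

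The change of the indel share can be divided among these kinds of allele. At Lats2-sg2 the leading insertion alone added 22.98 of the 29.6 points gained between 2 and 6 wpi (77.7%), other alleles present at 2 wpi added 2.24 points and alleles not seen at 2 wpi 4.34 points. At Lats2-sg1 the leader added 9.35 of 18.6 points (50.3%), other early alleles 3.78 and alleles not seen at 2 wpi 5.45 points. At Lats1-sg2 the rise of 16.6 points was spread more evenly, with 5.35 points from the leader (32.2%), 6.61 from other early alleles and 4.64 from those not seen at 2 wpi. At Lats1-sg1 the fall of 11.4 points consisted of -8.42 points in the leader and -4.98 points in other early alleles, with 1.95 points gained in alleles not seen at 2 wpi. An allele not seen at 2 wpi may have lain below the depth of that library.

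**Figure D4:**
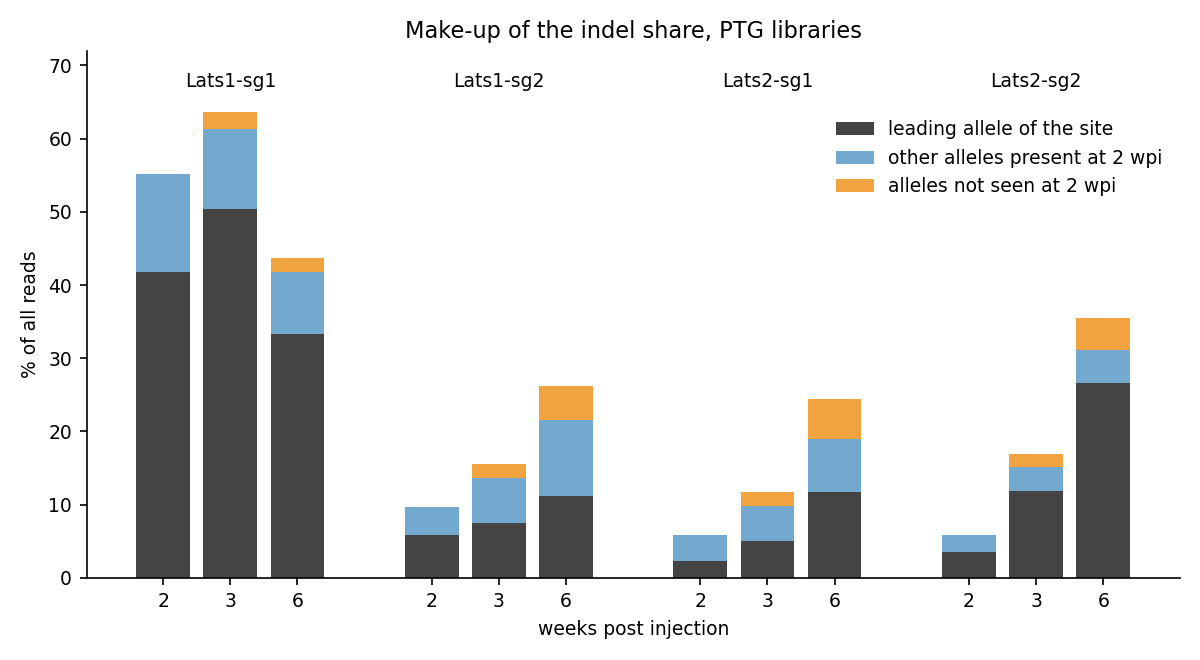
Indel share (percent of all reads, y axis) of each PTG library, stacked by the leading allele of the site, other alleles present at 2 wpi and alleles not seen at 2 wpi, against weeks post injection within each site (x axis). The leader makes up most of the growth at Lats2-sg2, 22.98 of 29.6 points, and less of it at Lats1-sg2, 5.35 of 16.6 points.

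By indel class, long deletions and deletions at microhomology gained at the 3 rising sites between 2 and 6 wpi. Deletions of 20 bp or more made up 0.0831% of indel reads at Lats2-sg1 at 2 wpi, 0.362% at 3 wpi and 5.67% at 6 wpi, in 1, 1 and 26 alleles (6 against 2 wpi, two-sided Fisher's exact test adjusted over 32 class tests, p = 9.56e-26). At Lats1-sg2 they made up 0.150%, 1.57% and 4.66%, in 1, 6 and 48 alleles (adjusted Fisher's exact p = 3.09e-10). At Lats2-sg2 they had 18 reads of a single allele at 2 wpi (1.48%), 0 of 2361 indel reads at 3 wpi, which allows up to 0.127%, and 2.76% in 15 alleles at 6 wpi (adjusted Fisher's exact p = 0.0156). At Lats1-sg1 their share was 1.40%, 1.02% and 0.955% (adjusted Fisher's exact p = 0.103). Many of these alleles were rare: without alleles of under 10 reads the class difference was 0 points at Lats1-sg2 and 0.829 points at Lats2-sg2 (adjusted Fisher's exact p = 0.140).

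Among deletions of 2 bp or more, those with at least 2 bp of microhomology rose at the same sites. At Lats2-sg1 they were 0 of 351 reads at 2 wpi, which allows up to 0.855%, then 0.516% and 21.4%, the last in 21 alleles of which the largest, a 6 bp deletion, held 116 of 509 reads (6 against 2 wpi, adjusted Fisher's exact p = 1.75e-33). At Lats2-sg2 the share was 21.7%, 13.7% and 46.5% (adjusted Fisher's exact p = 3.23e-11). It rested there on 1 allele at 2 and 3 wpi and on 18 alleles at 6 wpi, the largest being a 3 bp deletion with 177 of 398 reads. At Lats1-sg2 the share was 8.22%, 11.2% and 22.8% (adjusted Fisher's exact p = 3.10e-13), and without the leading deletion the difference of 11.2 points did not pass (p = 0.0609). At Lats1-sg1 it was 4.12%, 6.20% and 4.42%, with a difference of 0.296 points between 2 and 6 wpi (-1.997 to 2.96; adjusted Fisher's exact p = 0.939). Of the deletion reads of 20 bp or more at 6 wpi, 87.2% at Lats2-sg2, 73.4% at Lats2-sg1, 47.6% at Lats1-sg2 and 38.7% at Lats1-sg1 had such microhomology.

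**Figure D5:**
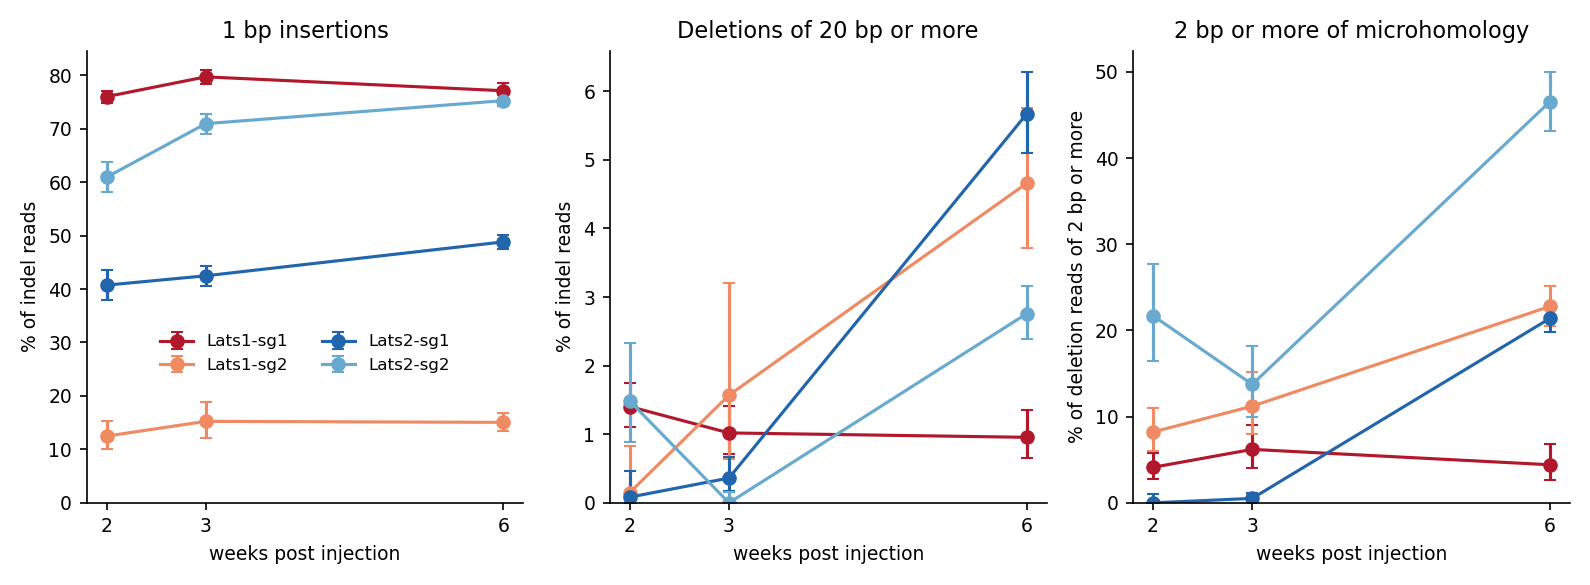
Selected indel classes in the PTG libraries against weeks post injection (x axis): 1 bp insertions and deletions of 20 bp or more, each as percent of indel reads, and deletions with at least 2 bp of microhomology as percent of deletion reads of 2 bp or more (y axes); points are single libraries with exact 95% intervals. Long and microhomology deletions are highest at 6 wpi at Lats1-sg2, Lats2-sg1 and Lats2-sg2, and Lats1-sg1 stays below 7% in both.

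The other classes moved site by site, and of the 32 class tests between 2 and 6 wpi 20 passed, 13 upward and 7 downward. The 1 bp insertions rose at both Lats2 sites, from 40.7% through 42.5% to 48.8% at sg1 (adjusted Fisher's exact p = 6.98e-07) and from 60.9% through 70.9% to 75.3% at sg2 (adjusted Fisher's exact p = 4.23e-23). They had 76.0%, 79.7% and 77.1% at Lats1-sg1 and 12.5%, 15.2% and 15.1% at Lats1-sg2, where neither difference passed. The 1 bp deletions fell at Lats2-sg1 from 25.6% to 13.1% and 8.40% (adjusted Fisher's exact p = 1.49e-53). Insertions of 2 to 19 bp fell at Lats2-sg2 from 9.32% to 1.86% and 1.29% (adjusted Fisher's exact p = 7.26e-42). Insertions of 20 bp or more fell at Lats1-sg2 from 7.37% to 3.14% and 2.84% (adjusted Fisher's exact p = 5.85e-06), a fall that rested on alleles of under 10 reads.

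The side of the cut on which bases were lost differed between the guides. At Lats1-sg1 the deletion reads that had lost bases on the left only made up 77.9%, 82.1% and 82.7% at 2, 3 and 6 wpi, and at Lats1-sg2 93.4%, 92.1% and 77.9%. At Lats2-sg2 bases were lost mostly on the right only, in 87.6%, 81.2% and 78.0% of deletion reads. At Lats2-sg1 loss on the right only made up 64.2%, 71.1% and 43.1%, and at 6 wpi 29.4% had lost bases on the left only. Loss on both sides was higher at 6 than at 2 wpi at the 3 rising sites, with 17.6% against 1.74% of deletion reads at Lats1-sg2, 27.4% against 8.04% at Lats2-sg1 and 19.1% against 6.74% at Lats2-sg2. At Lats1-sg1 it was 9.44%, 6.95% and 10.3%. These shares describe the libraries and were not tested. Deletions with inserted bases made up 80.9%, 60.5% and 41.9% of deletion reads at Lats2-sg2 and 51.3%, 53.0% and 59.4% at Lats1-sg1. They made up 40.1%, 4.85% and 8.67% at Lats2-sg1 and 1.74%, 3.10% and 5.21% at Lats1-sg2.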

How the data were processed

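Amplicons of hepatocyte genomic DNA were sequenced. Tools listed without their roles in the submitters' processing notes are Bowtie2, deepTools, bcl2fastq and R 4.2.1, with the build mm10; no source used here says which tool placed the junctions. The deposited tables hold 1 line per read with template and read positions beside the junction, the net length of the indel and the length of microhomology, all in bp and without normalisation, per the file headers. Of the series' tables, 24 at the Lats sites were used, 1 per library, and 43 of other sites were not used here; 2 of the libraries at other sites have a second table.

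Arm, site and time of each library come from the labels, and reads were counted per allele. The largest libraries have the narrowest intervals. Fisher's exact test (two-sided) was run on pairs of libraries, with Benjamini-Hochberg adjustment at 0.05, over 12 comparisons of times, over 18 pairs of sites, over all alleles with at least 20 reads in a pair of times, and over 32 class tests; sites were the unit of an exact sign-flip test. Expected allele numbers come from the hypergeometric formula. A share of 0 is given the limit that 3 reads would set. Named alleles are the 5 with the highest mean share at a site, and the largest called rise and fall between each pair of times at a site; others are said to be chosen after their values were seen. The members, this rule and the tests were chosen with earlier results of these data known. Alternatives left out rare alleles, EV alleles, 1 bp indels or the leading allele, subtracted the EV share, treated replacements of equal length as edited, kept indels within 5 bp of the cut, took net length as the allele, took shares of all reads, and moved minimums and depths. The calculations were tested on simulated reads. Gene positions come from RefSeq on GRCm38.p6, the assembly called mm10. Computations ran in scipy 1.17.1, pandas 2.3.3 and numpy 2.4.6 under Python 3.11.15, with plots in matplotlib 3.10.9.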

Additional observations from a re-analysis of the deposited data

Results flagged for a closer look

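Lats1-sg1 moved against the other sites in its change of the indel share: it changed by -19.9 points from 3 to 6 wpi and by -11.4 points from 2 to 6 wpi, while Lats1-sg2, Lats2-sg1 and Lats2-sg2 each rose over both spans. The difference between the sites was not tested, and each site rests on 1 library per time.

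Replacements of equal length at the cut, which leave the net length at 0 and are not counted as indels, passed the test above their EV library in 1 of 12 libraries. At Lats2-sg1 at 6 wpi they made up 0.447% of reads, 113 of 25254, against 0.246% in the EV library, 63 of 25575 (two-sided Fisher's exact test adjusted over 12 libraries, p = 0.00132). At the same site the share was 0.236% at 2 wpi and 0.298% at 3 wpi.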

How the results depend on the processing

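Values here are percentage points unless named otherwise. Of the 12 changes of the indel share, 11 kept direction and call under all alternatives that could alter them. Subtracting the EV share could not, since the same share leaves both times. The exception was Lats1-sg1 from 2 to 3 wpi, which was -0.213 with 1 bp indels counted as unedited. That setting also turned the order Lats2-sg2 minus Lats2-sg1 to -0.300, -2.77 and -5.62 at 2, 3 and 6 wpi, Lats2-sg2 minus Lats1-sg2 to -9.49 and -16.1 at 3 and 6 wpi, Lats1-sg1 minus Lats1-sg2 to -1.72 and -12.8 at 3 and 6 wpi, and Lats1-sg1 minus Lats2-sg1 to -2.31 at 6 wpi. Without the most frequent allele, Lats2-sg2 minus Lats2-sg1 was -1.10, -1.43 and -2.22, Lats2-sg2 minus Lats1-sg2 was -2.93 and -4.87, and Lats1-sg1 minus Lats1-sg2 at 6 wpi -1.39; without alleles under 10 reads, Lats1-sg2 minus Lats2-sg1 at 6 wpi was -1.02. Alleles called numbered 25, 24 and 25 for 3 against 2, 6 against 3 and 6 against 2 wpi with a minimum of 50 reads, 88 for 6 against 3 wpi with a minimum of 10 reads, and 25 for 3 against 2 wpi by net length alone. As a share of all reads, 6 minus 2 wpi turned at Lats1-sg1 to -0.143 (3 left bases replaced by 1; -0.221 from 3 to 6 wpi), -0.0184 (2 bp insertion) and -8.42 (1 bp insertion), at Lats2-sg1 to 1.11 (2 bp deletion on the right; 0.0893 from 3 to 6 wpi) and 0.428 (1 bp deletion on the left), and at Lats2-sg2 to 1.501 (2 right bases replaced by 1; 0.284 from 3 to 6 wpi) and 0.383 (3 replaced by 1); the leader of Lats1-sg2 turned to 1.71, 3.64 and 5.35 for 3 minus 2, 6 minus 3 and 6 minus 2 wpi. Without the leading allele, 6 minus 2 wpi turned to 0.163 for 2 left bases replaced by 1 at Lats1-sg1, -0.840 for the 4 bp deletion and -2.98 for the 1 bp insertion at Lats1-sg2, and 5.26 for 2 right bases replaced by 1 at Lats2-sg2; among classes it turned deletions of 2 to 19 bp to 0.394 at Lats1-sg1 and 11.7 at Lats1-sg2, and 1 bp insertions at Lats1-sg2 to -5.04. The 1 bp deletions at Lats2-sg2 were -0.0962 without alleles under 10 reads, and microhomology at Lats1-sg1 was -1.07 with a minimum of 1 bp and -0.234 with 3 bp. Equal-depth ratios of 6 to 2 wpi became 5.46 at Lats2-sg1 and 2.52 at Lats2-sg2 without EV alleles, 1.86 and 1.08 in 100 indel reads, and 2.49 at Lats2-sg2 without 1 bp indels; none fell below 1 at the 3 rising sites. At 665 indel reads, a depth chosen after seeing the data that leaves out Lats1-sg2 at 3 wpi, they stayed close. Mean spectrum distances for 2 and 3, 3 and 6, and 2 and 6 wpi were 0.401, 0.403 and 0.483 without 1 bp indels and 0.444, 0.374 and 0.464 without the leading allele, against 0.232, 0.182 and 0.256. The causes were not tested. Times were paired by site in the sign-flip test; replicates could not be paired, since each group holds 1 library and the labels give no replicate numbers. At 2 and 3 wpi few indel reads (446 to 2766 outside Lats1-sg1) limit what can be said of alleles under about 1% of them.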
